A study of Arabidopsis thaliana with 6 samples.

Results

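The plastid transfer RNA genes were analysed as the rows of the count tables whose identifiers belong to plastid tRNA loci, which gave 36 loci of the 36917 genes in the tables. Of these, 22 are present once in the plastid genome and 14 lie in its inverted repeat, where each sequence is present in both copies, so the latter were kept apart. The histidine tRNA locus was not analysed here. Counts were compared between 3 RNA-Seq libraries of wild-type Arabidopsis Col-0 seedlings and 3 libraries of amiR-mterf2 seedlings, which carry an artificial microRNA directed against MTERF2 in the Col-0 background. MTERF2 encodes a plastid-targeted member of the mTERF family, helical-repeat proteins that bind nucleic acids in organelles. All seedlings were 6 days old and had grown in long days on half-strength MS medium with sucrose, and the mutant was a single knock-down line, amiR1-3-mterf2. The labels give the genotypes as wild type and amiR-mterf2 mutant, and the study describes the libraries of each genotype as independent biological replicates of RNA depleted of rRNA.

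Plastid tRNAs serve the translation of the plastid genome's own messages. Their genes are transcribed by plastid-encoded and nuclear-encoded RNA polymerases, often together with neighbouring genes, and the precursors are trimmed by RNase P at the 5′ end and RNase Z at the 3′ end before a CCA tail is added. Several plastid tRNA genes of land plants are interrupted by introns that must be spliced out, most of them group II introns and one, in trnL.1, a group I intron. The glutamate tRNA has another use, since its charged form is the starting material of chlorophyll and haem synthesis.

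The sequences below are the mature parts of the loci on which the results turn, with the anticodon in capitals. They were read from the TAIR10.1 RefSeq plastid genome, on which all positions are given, and introns were left out. The first block shows the members interrupted by an intron outside the inverted repeat.
trnL.1: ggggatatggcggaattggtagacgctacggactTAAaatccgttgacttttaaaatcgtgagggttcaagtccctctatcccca
trnK: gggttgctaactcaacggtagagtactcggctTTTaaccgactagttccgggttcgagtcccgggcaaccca
trnG.1: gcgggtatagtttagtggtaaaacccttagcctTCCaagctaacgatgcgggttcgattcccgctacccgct
trnV.1: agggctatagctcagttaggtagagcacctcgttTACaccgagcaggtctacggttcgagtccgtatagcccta
The next block shows the intronless members with the highest difference and the members for which no difference was called, together with the glutamate tRNA.
trnS.3: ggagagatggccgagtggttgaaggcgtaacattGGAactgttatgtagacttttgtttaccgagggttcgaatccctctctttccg
trnR.1: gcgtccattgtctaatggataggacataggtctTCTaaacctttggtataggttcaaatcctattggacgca
trnT.2: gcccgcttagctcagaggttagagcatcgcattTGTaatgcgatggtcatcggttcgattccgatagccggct
trnS.2: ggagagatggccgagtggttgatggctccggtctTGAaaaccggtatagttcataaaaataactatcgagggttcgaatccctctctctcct
trnE: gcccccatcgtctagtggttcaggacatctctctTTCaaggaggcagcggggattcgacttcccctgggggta
The last block shows the tRNAs of the inverted repeat that had most of the repeat's counts.
trnI.2: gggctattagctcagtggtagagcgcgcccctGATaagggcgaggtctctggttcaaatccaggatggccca
trnA.1: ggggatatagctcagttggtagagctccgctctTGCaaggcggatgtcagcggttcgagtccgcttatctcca

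The locus trnL.1 (ATCG00400, anticodon UAA) lies at positions 46894 to 47490 on the plus strand and holds an intron of 512 bases between its exons. The locus trnK (ATCG00030, UUU) spans positions 1717 to 4347 on the minus strand with an intron of 2559 bases, inside which the maturase gene matK is encoded. The intron of trnG.1 (ATCG00100, UCC, positions 8646 to 9431, plus strand) is 714 bases long, and that of trnV.1 (ATCG00450, UAC, positions 51199 to 51871, minus strand) is 599 bases long. The intronless loci trnT.2 (ATCG00390, UGU, positions 46213 to 46285, minus strand) and trnF (ATCG00410, GAA, positions 48175 to 48247, plus strand) flank trnL.1. The anticodon of trnS.1 (ATCG00090, GCU) was found on the minus strand of positions 7785 to 7872, whereas the annotation lists the plus strand. The mitochondrial and nuclear genomes were searched for copies with at least 95% identity over at least 90% of the length. Such copies were found in both genomes for trnD, trnS.3, trnW and the trnN pair, and in the nuclear genome alone for trnY and trnE. Reads of these loci may be shared with such copies. For intron-bearing loci the search used the joined exons, so a copy that keeps the intron could not reach this length. Whether these loci have such copies is therefore not known.

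Between 18004935 and 21832003 counts were assigned to genes in each library, so that 3 counts, the limit that a count of 0 allows, corresponded to a level of 0.14 to 0.175 CPM, counts per 1000000 counts of the library. CPM values were scaled with TMM factors over all genes. Counts of the targeted gene MTERF2 were 48, 33 and 58 in Col-0 and 32, 16 and 8 in amiR-mterf2. Its difference, a log2 fold change of -1.15 ± 0.48 (SE), was not called by the quasi-likelihood test of edgeR (Benjamini-Hochberg adjusted p = 0.0837). It was called lower without amiR-mterf2 replicate 1 (-1.88, adjusted p = 0.0130) or without Col-0 replicate 2 (-1.29, adjusted p = 0.0244). The library of Col-0 replicate 2 stood apart from the other Col-0 libraries. It had 176 counts of COBL9, 69 of EXPA7 and 92 of RHD2, root-hair genes with at most 12 counts in any other library. Of the 6 root markers examined, 4 were called lower in amiR-mterf2 and the others had too few counts to be tested. Among these 4, COBL9 reached the minimum count of 10 only in wild-type libraries, and replicate 2 held most of its reads. COBL9 thus entered the test through the genotype in which it was higher, and its call is no support for a difference. The summed level of all 6 was 26.5 to 51.2 CPM in Col-0 and 11.9 to 14.3 CPM in amiR-mterf2. EXPA7 was at 0 in every library of both genotypes except Col-0 replicate 2. The summed level of 6 green-tissue markers was 11020 to 17330 CPM in Col-0 and 15440 to 15600 CPM in amiR-mterf2, with 2 of them higher and 1 lower. Among them, RBCS1A was at 2028, 5850 and 2084 CPM in Col-0 and 3492, 3484 and 3471 CPM in amiR-mterf2. Col-0 replicate 2 thus stood apart in this gene too. The part of these differences in the tRNA results was not tested. In whole seedlings, a difference in the number of plastids and a difference in the RNA per plastid cannot be told apart.

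The library preparation bears on every value below. The study's authors caution that their protocol captures mature tRNAs poorly. The counts therefore give RNA that the libraries could capture from these loci, in which precursors, longer co-transcripts and mature tRNA cannot be told apart, and they do not rank the tRNAs by abundance. The sources used here do not give whether strand was used in counting, so sense and antisense RNA of a locus cannot be told apart either.

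Across the 22 single-copy loci, 20 were higher in amiR-mterf2 than in Col-0 and 0 were lower by edgeR's quasi-likelihood test at an adjusted p of 0.05. All 22 passed the filter on low counts. Of all 17902 genes tested, 18.1% were higher and 18.2% lower. At an unadjusted p under 0.05 the same test counted 1 locus as lower. DESeq2 counted 0 at an adjusted p of 0.05. The median log2 fold change of the 22 loci was 0.96, beside -0.02 over all genes tested. Called rises of more than 2-fold were found in 10 of the 22 loci, beside 46 of 84 plastid protein-coding genes tested. In 20 loci every amiR-mterf2 library was above every Col-0 library, an order found in 25.0% of all genes, while in 1 locus every amiR-mterf2 library was below, an order found in 24.4%.

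Plastid protein-coding genes also differed between the genotypes, and the tRNA loci are read beside them. Of 84 such genes tested, 63 were higher (75.0%) and 2 were lower (2.38%), and their median log2 fold change was 1.26. The 36 tRNA loci took 0.435% to 0.542% of all counts in Col-0 against 1.00% to 1.09% in amiR-mterf2. The difference between the mean shares was 0.57 percentage points, and 0.1, its two-sided exact permutation p, is the smallest that 3 libraries against 3 allow. Of the counts of all 133 plastid loci, the tRNA loci took 0.738% to 0.875% in Col-0 and 1.65% to 1.83% in amiR-mterf2. These shares did not overlap either, and their two-sided exact permutation p was also 0.1. A share of summed counts is set mostly by the plastid loci with the most counts. It is thus not a comparison with the typical plastid message. Under scaling by plastid protein-coding genes, given below, the median log2 fold change of the 22 loci was -0.08.

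**Figure D1:**
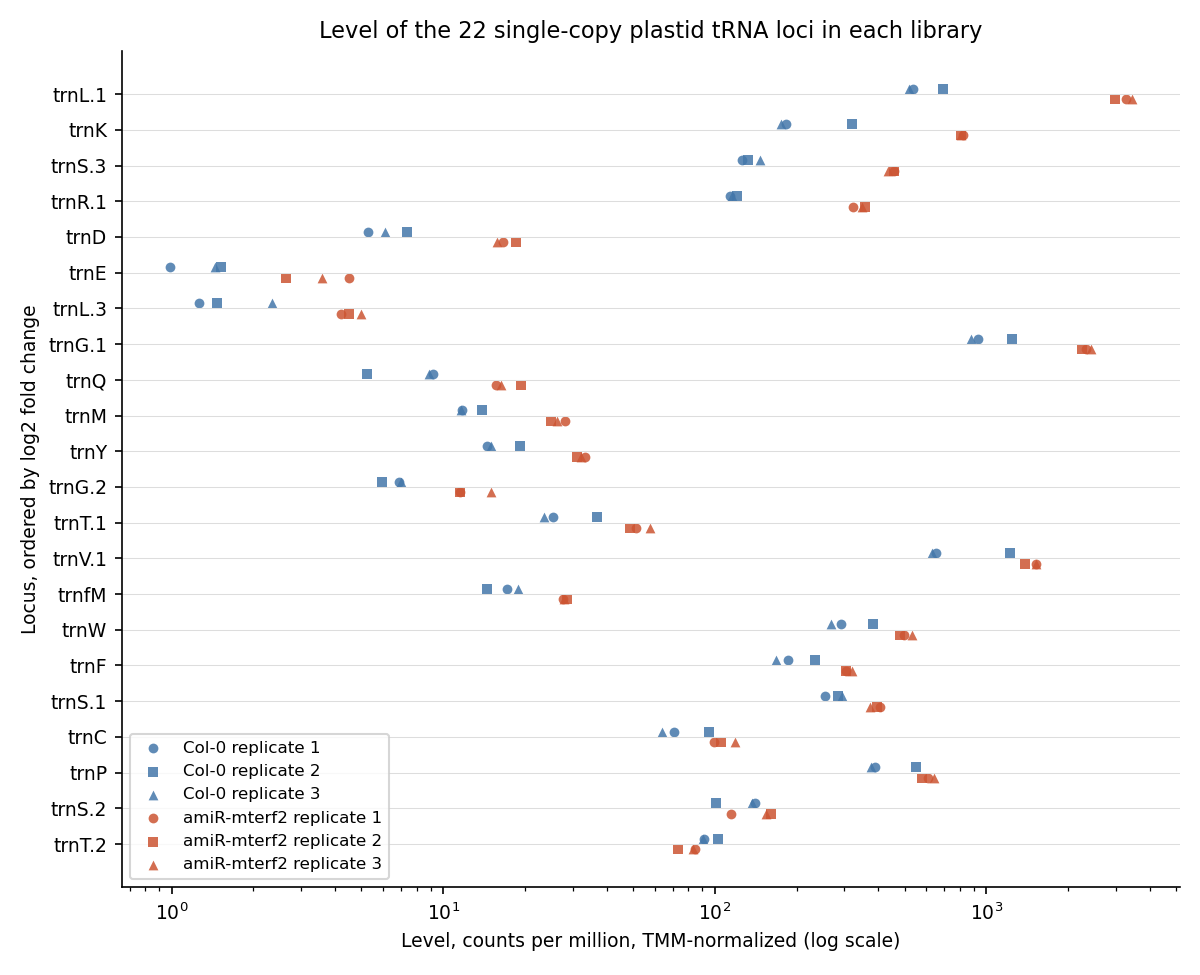
Level of each of the 22 single-copy tRNA loci in each library, in TMM-normalized CPM on a log axis, with Col-0 in blue, amiR-mterf2 in orange and one marker shape per replicate. Loci are ordered from the highest log2 fold change at the top to the lowest at the bottom, and the groups overlap in trnS.2 alone.

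The members interrupted by an intron had most of the tRNA counts. The 4 single-copy loci with an intron took 55.4% to 62.1% of the counts of all 36 loci in Col-0 and 69.7% to 71.9% in amiR-mterf2, shares that did not overlap (two-sided exact permutation p = 0.1, the smallest possible). Without trnL.1, the other 3 loci took 42.4% to 49.8% in Col-0 and 41.7% to 42.4% in amiR-mterf2, so that the rise in the share was that of trnL.1. All 4 rose, with a median log2 fold change of 1.52, while 16 of the 18 intronless loci rose, with a median of 0.91. The deposited counts were summed over exons. Whether the exons used for counting left out these introns is not given in the sources used here.

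The leucine tRNA locus trnL.1, whose group I intron is shared with cyanobacteria, had the highest difference of all 22. Its level was 536, 690 and 517 CPM in Col-0 and 3256, 2979 and 3426 CPM in amiR-mterf2. Every amiR-mterf2 library thus lay far above every Col-0 library. The log2 fold change was 2.47 ± 0.13 (SE, n = 3 per group, edgeR adjusted p = 2.31e-07), a 5.54-fold rise. This locus alone took 12.4% to 13.2% of the tRNA counts in Col-0 against 28.0% to 30.1% in amiR-mterf2.

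The lysine tRNA locus trnK was at 183, 319 and 175 CPM in Col-0 and at 820, 806 and 803 CPM in amiR-mterf2. Col-0 replicate 2 was highest among the wild-type libraries, and the groups did not overlap. Its log2 fold change was 1.84 ± 0.20 (edgeR adjusted p = 4.00e-05).

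The glycine tRNA locus trnG.1, the only tRNA gene here with a group IIB intron, was at 933, 1239 and 881 CPM in Col-0 and at 2323, 2254 and 2417 CPM in amiR-mterf2. Again Col-0 replicate 2 was the highest wild-type library without reaching the mutant ones. The log2 fold change was 1.20 ± 0.13 (edgeR adjusted p = 4.12e-05).

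The valine tRNA locus trnV.1 was at 651, 1224 and 628 CPM in Col-0 and at 1527, 1387 and 1525 CPM in amiR-mterf2. Replicate 2 of Col-0 came close to the mutant libraries here, and the other Col-0 libraries were far below. Its log2 fold change was 0.83 ± 0.22 (edgeR adjusted p = 0.0118). Without Col-0 replicate 2 it was 1.21 ± 0.04, and in DESeq2's Wald test the call was lost (adjusted p = 0.0540).

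Transcripts known to depend on the sigma factor SIG2 of the plastid-encoded polymerase include the clustered genes of aspartate, tyrosine and glutamate tRNA and those of trnV.1 and elongator methionine tRNA. All 5 loci rose, with a median log2 fold change of 1.09, beside 20 of 22 and a median of 0.96 over all single-copy loci, and a difference from the other loci was not tested. The glutamate tRNA locus trnE (ATCG00250, UUC) had few counts, 21, 28 and 31 in Col-0 and 77, 54 and 67 in amiR-mterf2. The groups were well separated even so, and the log2 fold change was 1.43 ± 0.31 (edgeR adjusted p = 0.00449).

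The aspartate tRNA locus trnD (ATCG00230, GUC) had 113, 135 and 131 counts in Col-0 against 285, 379 and 296 in amiR-mterf2. This corresponded to a log2 fold change of 1.44 ± 0.15 (edgeR adjusted p = 3.41e-05), close to that of trnE. The tyrosine tRNA locus trnY (ATCG00240, GUA) between them rose less, from 308, 352 and 321 counts to 568, 636 and 601. Its log2 fold change was 0.99 ± 0.13 (edgeR adjusted p = 0.000185), and whether the 3 neighbours differed in their rise was not tested.

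The methionine elongator locus trnM (ATCG00460, CAU) had 251, 255 and 248 counts in Col-0 against 479, 513 and 493 in amiR-mterf2. The replicates lay close together in both genotypes, and the log2 fold change was 1.09 ± 0.12 (edgeR adjusted p = 5.46e-05). SIG2 (AT1G08540) itself was at 11.3, 9.42 and 12.0 CPM in Col-0 and 16.3, 17.6 and 14.9 CPM in amiR-mterf2, a log2 fold change of 0.57 ± 0.14 (edgeR adjusted p = 0.00762). With total counts in place of TMM scaling, the call on SIG2 was lost (adjusted p = 0.0735).

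Among the intronless loci, trnS.3 and trnR.1 had the highest differences. The serine tRNA locus trnS.3 (ATCG00370, GGA) was at 126, 133 and 146 CPM in Col-0 and 455, 457 and 434 CPM in amiR-mterf2. Its libraries formed tight groups, and the log2 fold change was 1.73 ± 0.10 (edgeR adjusted p = 5.12e-07). The arginine tRNA locus trnR.1 (ATCG00110, UCU) was at 114, 120 and 115 CPM in Col-0 and 322, 358 and 348 CPM in amiR-mterf2. It showed an equally clear separation, with a log2 fold change of 1.56 ± 0.10 (edgeR adjusted p = 8.03e-07).

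A middle group of intronless loci rose by smaller factors or from low counts. The leucine tRNA locus trnL.3 (ATCG01030, UAG), which lies in the small single-copy region, had 27, 27 and 50 counts in Col-0 against 72, 92 and 93 in amiR-mterf2. The glutamine tRNA locus trnQ (ATCG00060, UUG) had 196, 96 and 190 counts against 267, 395 and 306. Their log2 fold changes were 1.42 ± 0.28 and 1.13 ± 0.20 (edgeR adjusted p = 0.00235 and 0.00113). The rises of trnG.2 (ATCG00310), trnT.1 (ATCG00260), trnfM (ATCG00320, the initiator tRNA), trnW (ATCG00610) and trnF (ATCG00410) ranged from 0.66 in trnF to 0.94 in trnG.2 on the log2 scale.

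The lowest called differences belonged to trnS.1, trnC and trnP. The serine tRNA locus trnS.1 was at 255, 284 and 295 CPM in Col-0 and 407, 396 and 371 CPM in amiR-mterf2. Its groups did not overlap, and its log2 fold change of 0.49 ± 0.10 had an edgeR adjusted p of 0.0030. The proline tRNA locus trnP (ATCG00620, UGG) was at 390, 551 and 377 CPM in Col-0 and 609, 577 and 643 CPM in amiR-mterf2, and the cysteine tRNA locus trnC (ATCG00200, GCA) at 70.8, 94.9 and 63.8 CPM and 99.4, 105 and 118 CPM. In both, Col-0 replicate 2 nearly reached the mutant libraries. Their log2 fold changes were 0.47 ± 0.14 and 0.49 ± 0.15 (edgeR adjusted p = 0.0240 and 0.0230). Without single libraries these calls were lost, that on trnC without amiR-mterf2 replicate 3 (adjusted p = 0.110), replicate 2, or Col-0 replicate 1 or 3, and that on trnP without any single library other than Col-0 replicate 2 (adjusted p up to 0.102).

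No difference was called in trnS.2 and trnT.2. The serine tRNA locus trnS.2 (ATCG00290, UGA), which lies 170 bases from psbC on the opposite strand, was at 141, 101 and 137 CPM in Col-0 and 115, 161 and 154 CPM in amiR-mterf2. The groups overlapped, and the log2 fold change was 0.18 ± 0.16 (edgeR adjusted p = 0.406). The threonine tRNA locus trnT.2 was at 91.1, 103 and 90.8 CPM in Col-0 and 84.3, 73.1 and 82.9 CPM in amiR-mterf2. It was the 1 locus in which every mutant library was below every wild-type library, with a log2 fold change of -0.25 ± 0.11 (edgeR adjusted p = 0.102). It was called lower with total counts in place of TMM scaling (-0.39 ± 0.12, adjusted p = 0.0217) and without Col-0 replicate 2 (-0.19 ± 0.07, adjusted p = 0.0352).

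Because most plastid protein-coding genes were also higher, the loci were tested again with scaling factors set by the plastid protein-coding genes. This scaling shifted the median of all genes to -1.06 on the log2 scale, with 2.88% of them called higher and 79.3% lower, so values under it read as relative to plastid messages. The 22 loci then had a median of -0.08, with 5 higher, 7 lower and 10 not called. The higher loci were trnL.1 (1.43), trnK (0.83), trnS.3 (0.68), trnR.1 (0.51) and trnD (0.40). The lower loci were trnT.2 (-1.29), trnS.2 (-0.89), trnP (-0.56), trnS.1 (-0.56), trnC (-0.54), trnF (-0.37) and trnW (-0.35), of which trnP, trnS.1, trnC, trnF and trnW rose under the scaling over all genes. The other 10 loci, trnG.1, trnV.1 and trnE among them, passed the test in neither direction under this scaling.

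**Figure D2:**
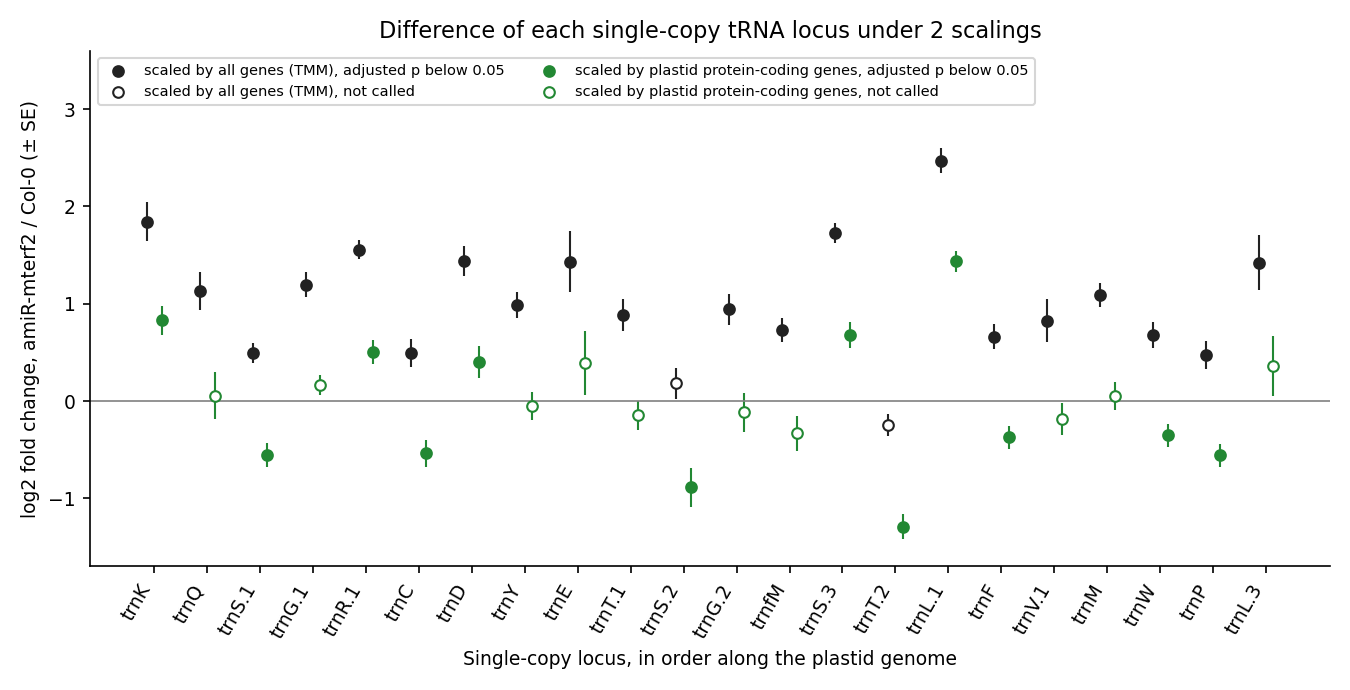
Log2 fold change of amiR-mterf2 over Col-0 with its standard error for each single-copy tRNA locus, in order along the plastid genome, scaled by all genes (black) or by plastid protein-coding genes (green). Filled points have an adjusted p below 0.05. Under the second scaling trnL.1 is at 1.43 and trnT.2 at -1.29.

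Ratios of counts between neighbouring loci within a library do not depend on scaling, and 5 pairs were compared after the values had been seen. The log2 ratio of trnL.1 to trnF was 1.57 ± 0.05 in Col-0 and 3.38 ± 0.07 in amiR-mterf2 (SD, n = 3), a difference of 1.80. That of trnL.1 to trnT.2 rose from 2.60 ± 0.13 to 5.33 ± 0.05, a difference of 2.73. In both pairs the groups lay far apart compared with their spread.

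The other pairs moved little or in the opposite direction. The log2 ratio of trnK to matK, the gene inside its intron, was -2.86 ± 0.03 in Col-0 and -3.25 ± 0.05 in amiR-mterf2, and that of trnG.1 to trnR.1 was 3.11 ± 0.23 and 2.77 ± 0.10. In these pairs the groups did not overlap, and the intron-bearing tRNA locus had the smaller share in the mutant. The ratio of trnV.1 to trnM overlapped between the groups, at 6.00 ± 0.40 and 5.81 ± 0.05, and its difference of -0.20 became 0.03 without Col-0 replicate 2. For trnV.1 to trnM the two-sided exact permutation p was 0.9. For each of the other pairs it was 0.1, the smallest possible here, and 0.125 after Benjamini-Hochberg adjustment over the 5 pairs.

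**Figure D3:**
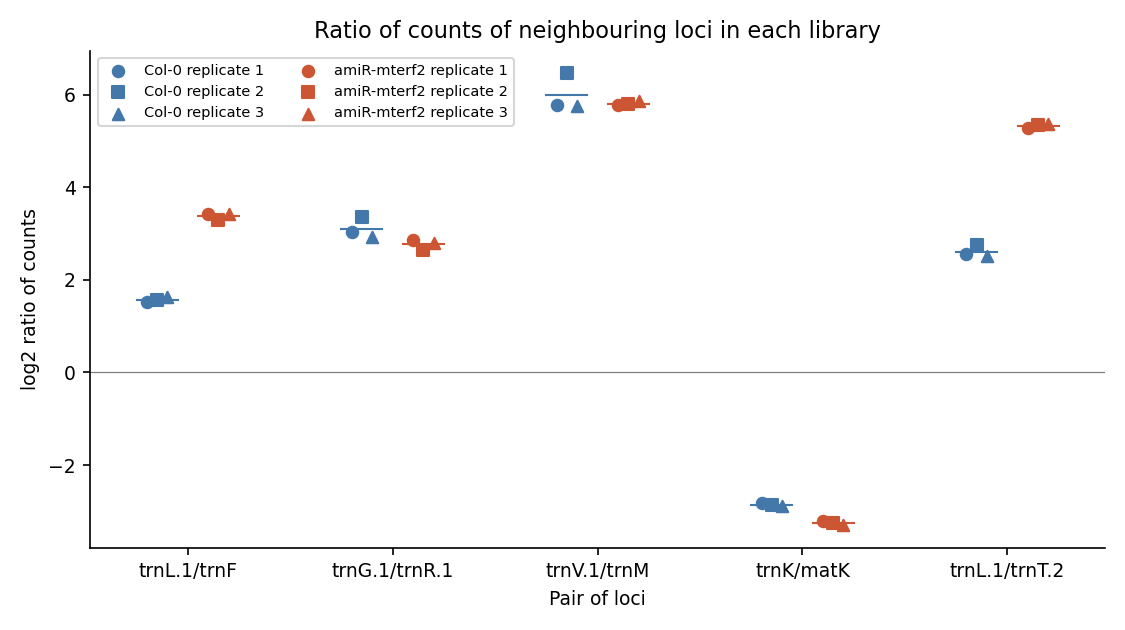
Log2 ratio of the counts of neighbouring loci in each library, for 5 pairs, with Col-0 in blue, amiR-mterf2 in orange, a marker shape per replicate and a line at each group mean. The trnL.1 to trnF ratio rises from a mean of 1.57 to 3.38, while the trnK to matK ratio goes from -2.86 to -3.25.

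Many plastid tRNAs are made from transcripts shared with messages, so each single-copy locus was set beside the nearest protein-coding gene. On the same strand that gene lay 0 to 8887 bases away, and the log2 fold changes of both were within 0.5 of each other in 5 of 22 loci. Examples were trnK beside matK (1.84 and 2.23), trnV.1 beside atpE (0.83 and 0.71) and trnfM beside rps14 (0.73 and 0.90). The threonine tRNA locus trnT.2 was at -0.25 beside 1.57 for rps4, a gene 384 bases away on its strand. In contrast, trnC rose by 0.49 on the log2 scale while petN, at a distance of 645 bases, fell by 1.12.

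When the nearest gene on either strand was taken, which was decided after the values had been seen, 10 of 22 loci were within 0.5. The locus trnG.1 was then at 1.20 beside 1.37 for atpA, trnR.1 at 1.56 beside 1.37, and trnG.2 at 0.94 beside 0.90 for rps14, each encoded on the opposite strand. Across the 22 loci the log2 fold changes of tRNA locus and gene had a Pearson correlation of -0.20 on the same strand and 0.48 on either strand, and Spearman's rho was -0.24 and 0.53. The 22 loci shared 14 and 16 neighbours, and all values come from the same 6 libraries, so these correlations are a description. Reads on the opposite strand of a tRNA locus were not separable from its own.

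**Figure D4:**
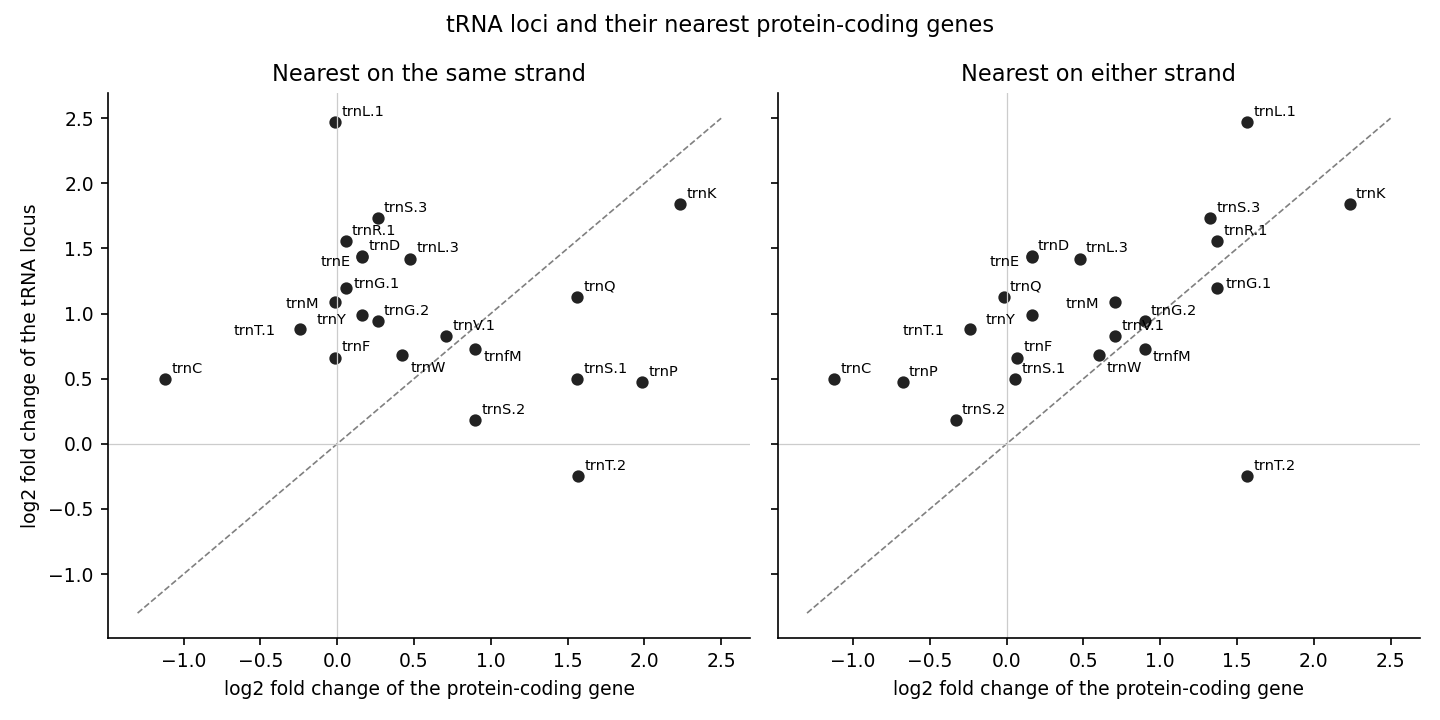
Log2 fold change of each single-copy tRNA locus against that of its nearest protein-coding gene on the same strand (left) or on either strand (right), with a dashed line where both are equal. In both panels trnT.2 is far below the line, at -0.25 beside 1.57 for rps4.

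The 14 loci of the inverted repeat had few counts, 33 to 374 in all in the Col-0 libraries and 119 to 2560 in the amiR-mterf2 libraries. Reads of sequences present in both copies may have been left out or split by the authors' counting, so these values are uncertain. Only trnI.2 (ATCG00930) and trnI.3 (ATCG01200) passed the filter on low counts. Of these, 1 was higher and 0 were lower (0 also at an unadjusted p under 0.05, and by DESeq2 at an adjusted p of 0.05). The pair encodes the isoleucine tRNA with the anticodon GAU, at positions 102801 to 103601 and 135048 to 135848, with a group IIA intron of 729 bases.

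The copy trnI.2 had 8, 25 and 35 counts in Col-0 against 41, 168 and 79 in amiR-mterf2. The groups did not overlap, although the lowest mutant library was close to the highest wild-type one. The log2 fold change was 2.14 ± 0.52 (edgeR adjusted p = 0.00806), and without amiR-mterf2 replicate 2 it was 1.56 ± 0.54 (adjusted p = 0.0596). The locus passed the filter mainly through the mutant libraries.

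The copy trnI.3 had 15, 102 and 338 counts in Col-0 against 53, 2374 and 93 in amiR-mterf2. A single library, amiR-mterf2 replicate 2, held most of these counts, and the groups overlapped. The log2 fold change was 2.49 ± 1.18 (edgeR adjusted p = 0.125), and without that library it was -0.87 ± 0.88. The sum of both copies followed the same library (2.45 ± 1.05, adjusted p = 0.0942).

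The alanine tRNA pair trnA.1 (ATCG00940) and trnA.2 (ATCG01190), with the anticodon UGC and an intron of 801 bases, follows trnI in the spacer between the rRNA genes. The copies had 1, 5 and 0 and 1, 4 and 1 counts in Col-0, against 6, 9 and 19 and 6, 5 and 10 in amiR-mterf2. All mutant libraries were above all wild-type ones, an order found in 25.0% of all genes tested. The gap was small, between 5 and 6 counts in trnA.1 and between 4 and 5 in trnA.2. Neither copy had enough counts to be tested. With both copies summed, the pair had 2, 9 and 1 counts in Col-0 against 12, 14 and 29 in amiR-mterf2, a log2 fold change of 2.24 ± 0.75 (edgeR adjusted p = 0.0382). All 3 Col-0 sums were under the minimum count of 10 and all amiR-mterf2 sums above it, so the pair entered the test only through the group in which it was higher, and this p is no support for a difference.

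The other 10 loci of the repeat encode the tRNAs trnI.1 and trnI.4 (anticodon CAU), trnL.2 and trnL.4 (CAA), trnV.2 and trnV.3 (GAC), trnR.2 and trnR.3 (ACG), and trnN.1 and trnN.2 (GUU). They had 0 to 7 counts in any library, and trnL.2 (ATCG00880) and trnV.3 (ATCG01220) had 0 counts in all 6. A difference in these loci was not detectable with so few counts, from which reads present in both copies may be missing.

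**Figure D5:**
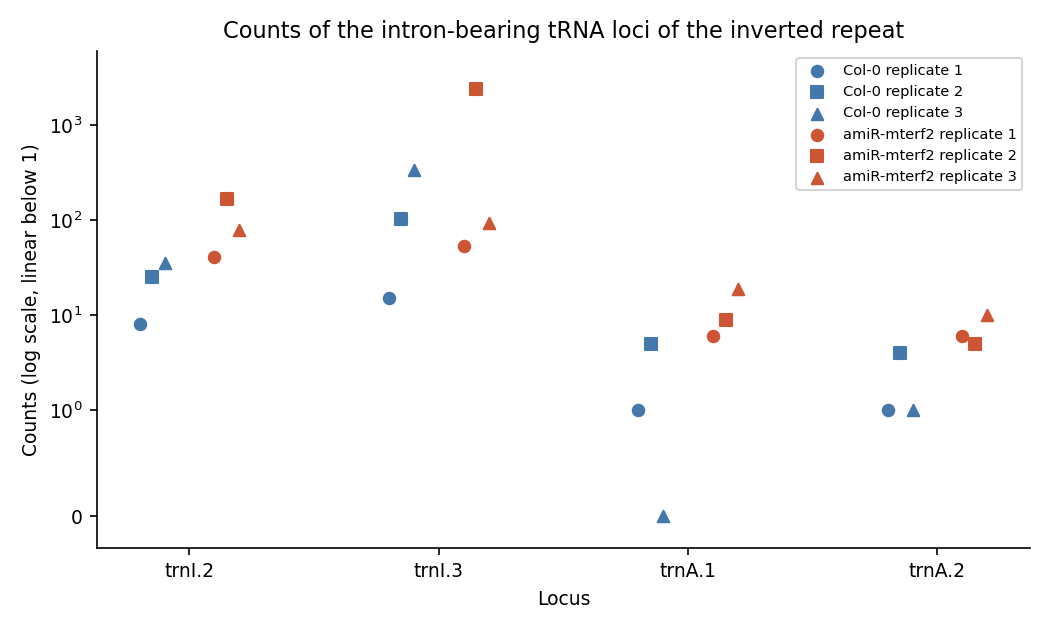
Counts of the 4 intron-bearing tRNA loci of the inverted repeat in each library, on an axis that is logarithmic above 1 and linear below, with Col-0 in blue, amiR-mterf2 in orange and a marker shape per replicate. The 2374 counts of trnI.3 in amiR-mterf2 replicate 2 stand above all other values.

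The nuclear genes that charge, mature and use plastid tRNAs were taken as a list of 35 genes, with 19 aminoacyl-tRNA synthetases and 16 others such as RNase P, RNase Z, the CCA-adding enzyme and glutamyl-tRNA reductase. Many of these synthetases also serve mitochondria. Of the 34 genes tested, 18 were higher in amiR-mterf2 and 0 lower, with a median log2 fold change of 0.43. The count of lower genes was 0 also at an unadjusted p under 0.05, and by DESeq2 at an adjusted p of 0.05. Among all genes tested, 18.1% were higher and 18.2% lower, with a median of -0.02. By group, 10 of 19 synthetases and 8 of 15 others rose. The gene of the plastid elongation factor RABE1b (AT4G20360) had 0 to 6 counts and was not tested.

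The highest rise was that of HEMA2 (AT1G09940), a glutamyl-tRNA reductase, the enzyme that takes charged glutamate tRNA into tetrapyrrole synthesis. It was at 7.60, 8.82 and 8.69 CPM in Col-0 and 25.9, 23.7 and 23.5 CPM in amiR-mterf2, groups that lay well apart. Its log2 fold change was 1.54 ± 0.12 (edgeR adjusted p = 4.85e-06). The main isoform in green tissue, HEMA1 (AT1G58290), was at 202, 159 and 201 CPM and 245, 253 and 256 CPM, with a log2 fold change of 0.43 ± 0.12 (edgeR adjusted p = 0.0141).

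The ribonuclease gene RNJ (AT5G63420) was at 13.3, 9.31 and 15.2 CPM in Col-0 and 29.9, 31.1 and 28.3 CPM in amiR-mterf2, and the tryptophanyl-tRNA synthetase gene TrpRS (AT2G25840) at 1.64, 1.69 and 1.22 CPM and 3.62, 2.54 and 3.68 CPM. Their log2 fold changes were 1.23 ± 0.17 and 1.11 ± 0.29. The lowest called rises were 0.33 ± 0.11 in ProRS (AT5G52520) and 0.37 ± 0.13 in LeuRS (AT4G04350). The calls on ProRS and LeuRS were lost in 9 of 14 alternatives, among them DESeq2 (adjusted p = 0.0717 and 0.0737). In 1 more, scaling by plastid protein-coding genes, both were called lower (-0.72 and -0.69). The calls on HEMA1 and TrpRS were lost without one or another library, and with total counts in place of TMM 10 of the 34 genes were called higher.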

How the data were processed

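RNA-Seq counts of 3 Col-0 and 3 amiR-mterf2 libraries were taken per gene as the authors deposited them, raw and without normalization, summed over exons. The submitters' processing notes list Trimmomatic, FastQC, TopHat2 2.1.1, featureCounts and the build TAIR10, whereas the column headers name HISAT2. The handling of strand, of reads with several matches and of read pairs is not given in the sources used here. The members and gene lists were chosen with earlier results of these data known.

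Genes were kept by edgeR's filterByExpr (minimum count 10, minimum total 15), which left 17902 genes, and genotypes were compared with R 4.3.3, edgeR 4.0.16 (quasi-likelihood test, TMM, Benjamini-Hochberg adjustment over all kept genes, threshold 0.05) and limma 3.58.1. DESeq2 1.42.0 was an alternative. Standard errors were derived from the fold change and its F statistic. Tests were tested on simulated counts. For ratios and shares, exact permutation tests (two-sided) were run with scipy 1.17.1, and floors of 3 counts cover counting error only.

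Loci were placed on TAIR10.1 by symbol and, for 5 loci, by flanking genes. Copies outside the plastid were searched with BLAST+ 2.17.0, with the mature sequences without introns. All loci were named, with full values for intron-bearing loci, the SIG2-dependent loci, the 4 highest and 4 lowest single-copy loci and those not called, and in the pathway list for HEMA1, SIG2 and the 3 highest and 3 lowest called genes. Other loci given in full were chosen after their values were seen. Alternatives were DESeq2 size factors, total counts, scaling by nuclear or by plastid protein-coding genes, DESeq2's Wald test, no filter, a minimum of 10 counts per library, a replicate block, leaving out each library, and summed inverted-repeat copies.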

Additional observations from a re-analysis of the deposited data

How the results depend on the processing

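With 13 alternatives other than scaling by plastid protein-coding genes, 17 of the 20 single-copy loci called higher were called higher each time, the exceptions being trnV.1, trnC and trnP. Scaling by plastid protein-coding genes gave 5 single-copy loci higher and 7 lower, 0 inverted-repeat loci higher, and 1 gene of the charging and maturation list higher and 21 of 34 lower, beside 2.88% and 79.3% of all genes. It shifts the median of all genes to -1.06, so that loci with smaller rises turn negative by construction, and the MTERF2 value moves by the same shift. The direction reversed in trnS.1 (-0.56), trnC (-0.54), trnY (-0.050), trnT.1 (-0.15), trnS.2 (-0.89), trnG.2 (-0.12), trnfM (-0.33), trnF (-0.37), trnV.1 (-0.18), trnW (-0.35), trnP (-0.56), HEMA1 (-0.64), SIG2 (-0.49), ProRS (-0.72) and LeuRS (-0.69), and MTERF2 was called lower (-2.21). Total counts without TMM gave 1 single-copy locus, trnT.2, lower and 10 genes of the list higher. With no filter 2 inverted-repeat loci were higher, and with at least 10 counts in every library 0.

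Leaving out one library at a time gave 18 to 20 single-copy loci higher and 0 to 1 lower, 0 to 2 inverted-repeat loci higher, 12 to 22 genes of the list higher, and a log2 fold change of MTERF2 of -1.88 to -0.79, which was called without Col-0 replicate 2 (-1.29) or amiR-mterf2 replicate 1 (-1.88). The log2 fold change of trnI.3 ranged from -0.87 without amiR-mterf2 replicate 2 to 3.77 without Col-0 replicate 3. The correlation of tRNA loci with neighbours was -0.20 on the same strand and 0.48 on either strand. The replicate numbers did not pair the libraries (correlations of deviations 0.04, 0.03 and -0.02), and with a replicate block 20 single-copy loci were higher, 1 inverted-repeat locus was higher and 16 genes of the list were higher. The causes of these differences were not tested. Low counts limit trnE, trnL.3 and the inverted repeat.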
